A study of Mus musculus with 6 samples.

Results

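The 83 genes described here encode the protein components of the cytosolic ribosome. They were taken from the 32285 gene symbols of the deposited table by symbol alone (Rpl or Rps followed by a number, Rplp0 to Rplp2, and Rpsa), and symbols marked as pseudogenes (-ps) were left out. Of the 83 members, 48 belong to the large subunit, 32 to the small subunit and 3 to the stalk of the large subunit. The study measured single-cell RNA in sciatic nerve cells of C57BL6/J mice aged 23 weeks, fed either SD or HFD (the usual abbreviation of a high fat diet). All mice shared strain, age and tissue, and the labels name no genotype other than the strain. Nerves of perfused mice were digested, Schwann cells were enriched with magnetic beads against O4, a lipid antigen of the Schwann and oligodendrocyte lineages, and libraries were made with droplet-based 10x Genomics 3' chemistry. The deposited cells come from 3 SD and 2 HFD libraries. HFD replicate 3 is not analysed here. Nothing in the labels says that the samples came from separate animals, so the spread between libraries may be technical.

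Each ribosome is built from a small subunit, which reads the messenger RNA, and a large subunit, which joins the amino acids. The genes for their proteins are transcribed at high levels in nearly every cell, so the share of a cell's messenger RNA that they take up is one of the strongest signals in a droplet library. Their messenger RNAs carry a run of pyrimidines (C or T) at the 5' end, through which mTOR signalling and the RNA-binding protein Larp1 control their translation. In nerve, Schwann cells make the myelin around axons and resident macrophages take up debris.

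The start sites of the most abundant members are shown first, because the pyrimidine run at the start is the sequence feature of this gene class and played no part in choosing the members. RefSeq promoter entries (build GRCm38.p6) existed for 63 of the 83 members and for 8 of the 10 members with most UMIs (unique molecular identifiers, counts of distinct molecules). Rps29 (chr12:69157722-69159186, minus strand) and Rplp1 (chr9:61913284-61914542, minus strand) are named only. Each line gives the 15 bases before and the 15 bases after an annotated start, 5′ to 3′ on the gene's own strand. The longest C/T run is in capitals. For a gene with several promoter entries, the entry with the longest run is shown.
Rps24 (chr14:24490663-24490692, plus strand): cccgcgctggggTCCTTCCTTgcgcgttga
Rpl37a (chr1:72711245-72711274, plus strand): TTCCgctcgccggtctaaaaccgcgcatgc
Rps27 (chr3:90213634-90213663, minus strand): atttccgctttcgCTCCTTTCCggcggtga
Rps28 (chr17:33824548-33824577, minus strand): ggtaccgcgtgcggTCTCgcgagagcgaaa
Rpl35a (chr16:33056467-33056496, plus strand): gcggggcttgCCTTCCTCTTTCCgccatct
Rpl13 (chr8:123102335-123102364, plus strand): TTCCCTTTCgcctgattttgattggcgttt
Rps21 (chr2:180257364-180257393, plus strand): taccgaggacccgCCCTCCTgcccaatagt
Rpl23 (chr11:97782425-97782454, minus strand): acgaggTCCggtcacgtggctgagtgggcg

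A run of at least 7 pyrimidines lay in 5 of these 8 windows, with 13 bases in Rpl35a and 9 in Rps24, Rps27 and Rpl13. Where a gene had several entries the window was picked by its run, so this count favours long runs. In Rpl13 the run lay wholly before the annotated start. The Rps24 window lies inside the span of the gene (chr14:24487125-24496959). Over all 75 promoter entries of the 63 members, 46.7% held such a run within the 30 bases, against 18.6% of the 32851 promoters in the table (members included). The letters CTCTTT, searched on both strands of the 300 bases around the start, stood in 44% of the members' promoters and in 23.0% of all. This motif consists of pyrimidines on its own strand, so it can overlap the run at the start. The letters CGGAAG, the core of sites for ETS-family factors, were in 60% of the members' promoters and 16.9% of all, searched the same way. These are matches of letters and no measure of binding or of a start in these cells.

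The 5 libraries held 364 cell barcodes, with 37744 to 349450 UMIs per library and 122 to 24932 per barcode. No barcode was shared between libraries, and within libraries 15 pairs of barcodes differed by 1 base. Cell types are the names of the authors' deposited table. The list of 15 macrophage markers took 6.07% of the UMIs in the barcodes named Macrophages, with all 15 counted, and 14 myelin markers took 5.34% of those named SCP, with all 14 counted. In the other types the names and the markers went together less well. In nmSC, Sox10 and Erbb3 were at 0 and 3 of the 14 myelin markers were counted (0.0266% of UMIs), while 10 fibroblast markers took 5.20%, and in repairSC, Sox10, S100b, Erbb3 and Cdh19 were all at 0. The mySC barcodes held both myelin markers (2.02%) and macrophage markers (1.06%), and neutrophil markers (2.19%).

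The members together held 140882 UMIs, 12.2% of all UMIs. Messenger RNAs are counted here at 1 end, so UMI counts of genes are set side by side without a correction for length. Rps29, a small zinc-binding protein of the small subunit, stood first with 7266 UMIs, 5.16% of the members' total. Other small-subunit members among the 10 with most UMIs were Rps24 (3427), Rps27 (3284), Rps28 (3132) and Rps21 (2658). The large subunit was led by Rpl37a (3294 UMIs), Rpl35a (3027), Rpl13 (2724) and Rpl23 (2563), and the stalk, which recruits elongation factors, by Rplp1 (3337). These 10 genes held 24.6% of the members' UMIs, and the median member had 1647. Small-subunit members held 45.9%, large-subunit members 49.5% and the stalk 4.56% of the members' UMIs. Rplp1 was counted in the largest share of barcodes, 66.8%, and 55 members were counted in more than 50% of them. Part of these reads can come from near-identical processed pseudogenes: the 5 symbols left out as pseudogenes held 101 UMIs in all, and Rps27rt, a copy of Rps27 outside the rule, held 51.

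The paralogs named after a parent gene were the rarest members. Rpl7l1, which takes part in ribosome assembly, had 38 UMIs, Rps27l 181 and Rpl22l1 327, the 3 lowest counts above 0. Next came Rpl4 (380), a core protein of the large subunit. Rpl10l, Rpl39l and Rpl3l, known from testis or muscle, had 0 of 1155624 UMIs, which allows a level of up to 2.60 CPM (UMIs per 1e+06). All intervals and limits of this kind cover counting error only. Of the 80 members with a UMI, 77 had their highest level in Macrophages when CPM were pooled over libraries. The other 3 were highest in nmSC: Rpl22l1, Rps27l and Rps2. Rpl22l1 was at 713 CPM in nmSC and 332 CPM in Macrophages. By library its nmSC level was 835 and 195 CPM in SD replicates 1 and 2 and 1625 and 236 CPM in HFD replicates 1 and 2, from 4 to 40 UMIs each. The pooled nmSC level of Rpl22l1 therefore came mostly from the first library of each diet.

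The share of UMIs taken by the members was highest in Macrophages in 4 of the 5 libraries and in nmSC in HFD replicate 1. In Macrophages it was 21.3%, 19.1% and 14.4% in SD replicates 1 to 3 and 15.5% and 18.6% in HFD replicates 1 and 2. In SCP it was 3.65%, 3.12% and 8.42% (SD) and 4.34% and 3.51% (HFD). Every library had a higher share in Macrophages than in SCP. The types were defined from the same cells, so this is a description without a test. In mySC the share was 9.87%, 3.65% and 5.19% (SD) and 3.20% and 18.1% (HFD), and in nmSC 5.70% and 9.22% (SD) and 16.2% and 6.15% (HFD). SD replicate 3 held no nmSC barcode. In repairSC it was 2.18%, 0.391% and 0.125% (SD) and 1.55% and 8.76% (HFD), the lowest of the 5 types in every library but HFD replicate 2. Counting error is small beside the larger gaps: the exact 95% binomial interval of the highest mySC value is 17.7% to 18.5%. In repairSC the values of SD replicates 2 and 3 rest on 3 and 7 members' UMIs. Their intervals are 0.0807% to 1.14% and 0.0502% to 0.257%. SD replicate 1 and HFD replicate 1 held 2 repairSC barcodes each.

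**Figure D1:**
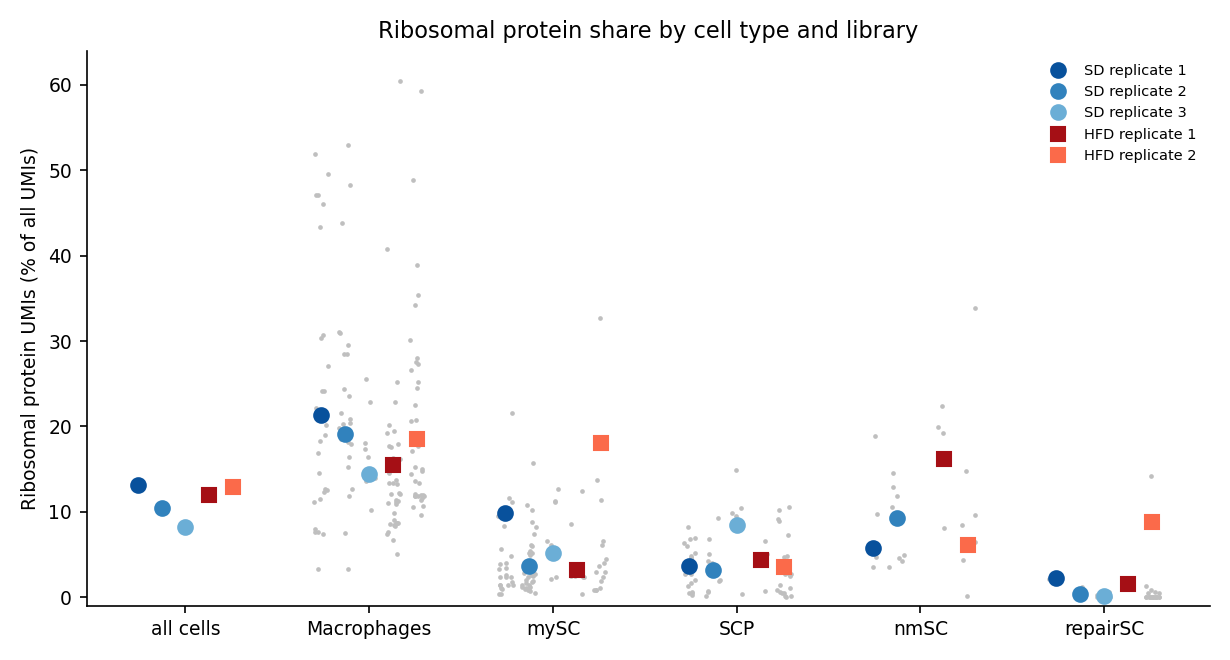
Share of UMIs taken by the 83 ribosomal protein genes (y axis, % of all UMIs) for all cells and for the 5 deposited cell types (x axis). Large circles (SD) and squares (HFD) are library sums and small grey points are single barcodes of the types. Macrophages lie between 14.4% and 21.3%, SCP between 3.12% and 8.42%, and in mySC HFD replicate 2 stands apart at 18.1%.

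Macrophages also held most of the members' UMIs in 4 of the 5 libraries. They contributed 78.3%, 73.5% and 38.4% of them in SD replicates 1 to 3 and 83.0% and 66.0% in HFD replicates 1 and 2. In SD replicate 3, SCP contributed 56.2%. Macrophages made up 48.4%, 39.9% and 22.0% of the UMIs with SD and 64% and 45.7% with HFD.

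At equal depth the number of members detected largely follows from their share, so it is no separate result. It differed between Macrophages and SCP in the same direction. When each barcode was thinned to 250 UMIs, leaving out shallower ones, the mean number of members with a UMI was 26.3 to 34.4 per Macrophage barcode over the 5 libraries and 7.70 to 18.0 per SCP barcode. Without thinning the means were 58.0 to 67.4 and 48.4 to 60.8. Thinning left out 13 Macrophage barcodes, 6 of the 8 in SD replicate 3 and 7 in HFD replicate 2, and 2 SCP barcodes, both in HFD replicate 2.

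Pooled over libraries, share and depth showed little relation within the types other than repairSC. Spearman's rho between a barcode's share and its UMI total was -0.04 over 143 Macrophages, -0.06 over 92 mySC, -0.12 over 60 SCP and -0.14 over 24 nmSC barcodes. It was 0.44 over 45 repairSC barcodes and 0.27 over all 364, where types of different depth are mixed (median 4230 UMIs in SCP and 261 in repairSC). Within libraries of at least 10 barcodes the signs differed. In Macrophages rho was 0.16 and -0.32 in SD replicates 1 and 2 and 0.27 and 0.02 in HFD replicates 1 and 2. It was 0.10, -0.08 and 0.29 in mySC of SD replicates 1 and 2 and HFD replicate 2, and 0.04, -0.14 and -0.20 in SCP of the same libraries. Barcodes share libraries, so these values describe the barcodes and carry no test.

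**Figure D2:**
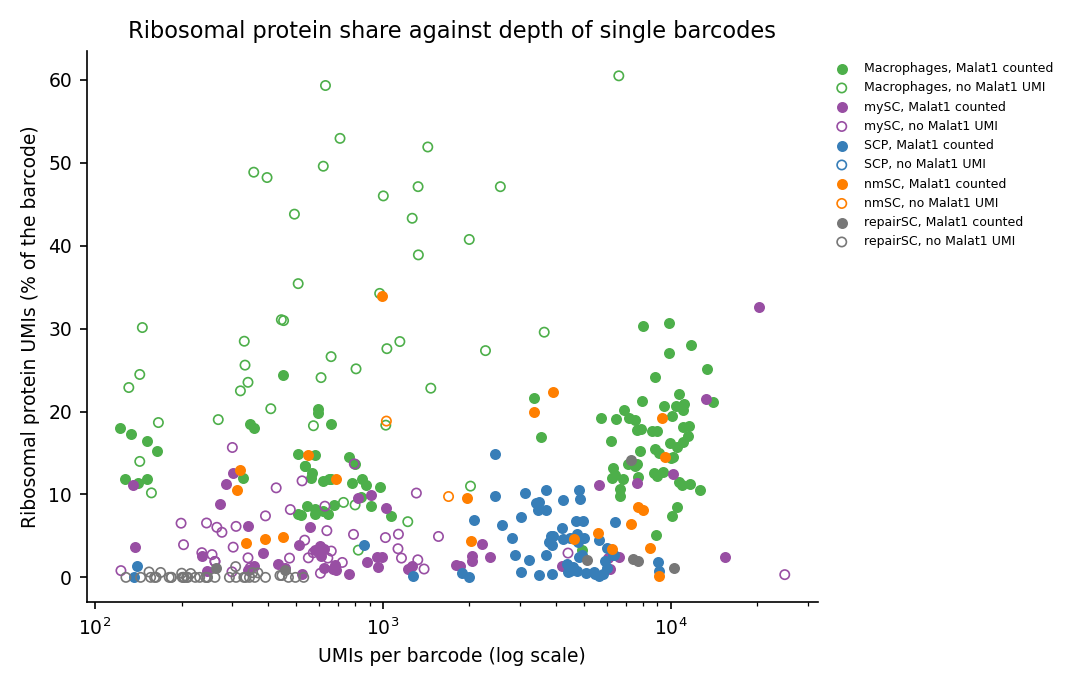
Share of UMIs taken by the ribosomal protein genes (y axis, % of the barcode's UMIs) against UMIs per barcode (x axis, log scale) for 364 barcodes, coloured by deposited type. Open circles had no Malat1 UMI. The 13 barcodes at 40% or more are all open circles of the Macrophages, and a single mySC barcode of 20329 UMIs lies at 32.7%.

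The design asks whether the diet changed the members' share. Over all cells it was 13.2%, 10.4% and 8.23% with SD and 12% and 12.9% with HFD. The HFD values lay between the SD values, so the groups overlapped. The means were 10.6% ± 2.49 (standard deviation, n = 3) for SD and 12.4% ± 0.626 (n = 2) for HFD, a difference of 1.81 percentage points (two-sided exact permutation test, p = 0.5). With 3 against 2 libraries the smallest p this test can give is 0.1. With Macrophages, mySC and SCP given equal weight in each library and the other types left out, the difference was 0.677 points (exact permutation p = 0.8). The values were 11.6%, 8.64% and 9.33% (SD) and 7.69% and 13.4% (HFD). This sets the proportions of these types aside, but the last value includes the mySC share of 18.1% in HFD replicate 2. The folder names of the libraries carry 2 different numbers, and within the first (SD replicates 1 and 2, HFD replicate 1) the difference was 0.180 points. Within the second (SD replicate 3, HFD replicate 2) it was 4.62 points.

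Within the types the differences pointed in different directions, and each was smaller than the larger of the 2 groups' standard deviations. The HFD mean was lower in Macrophages, at 17.0% ± 2.15 against 18.3% ± 3.55 (exact permutation p = 0.7), and in SCP, at 3.93% ± 0.587 against 5.06% ± 2.92 (exact permutation p = 0.9). It was higher in mySC, at 10.7% ± 10.5 against 6.24% ± 3.24 (exact permutation p = 0.7). It was also higher in nmSC, at 11.2% ± 7.11 against 7.46% ± 2.48, where 2 libraries stood on each side (exact permutation p = 0.667, with 0.333 the smallest possible). Adjusted over these 4 comparisons by the Benjamini-Hochberg method, each p was 0.9. SD and HFD libraries overlapped in all 4 types. The difference between types was tested as well, by taking one type's share minus the other's in each library. Between mySC and Macrophages the diet difference differed by 5.66 points (exact permutation p = 0.5, adjusted 0.9), between mySC and SCP by 5.55 points (exact permutation p = 0.6, adjusted 0.9), and between Macrophages and SCP by -0.107 points (exact permutation p = 1).

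Each of these directions rested on single libraries. In Macrophages the difference of -1.24 points became 0.282 without SD replicate 1 and 0.278 without HFD replicate 1, and it was -3.20 without SD replicate 3, which held 8 of these barcodes. Within the first folder number it was -4.72 points and within the second 4.18. In SCP the difference of -1.14 points became 0.539 without SD replicate 3, the library with the high share, and it was 0.954 and -4.91 points within the 2 folder numbers. In nmSC the difference of 3.72 points became -1.31 without HFD replicate 1. Without HFD replicate 2 it was 8.75, which is also the value within the first folder number, and the second holds no SD barcode of this type. In mySC the difference of 4.41 points became -3.04 without HFD replicate 2, and it was -3.56 and 12.9 points within the 2 folder numbers.

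In mySC the share was carried by a few deep barcodes. A single barcode of HFD replicate 2 with 20329 UMIs held 6640 members' UMIs, 32.7% of its own total and 83.6% of the members' UMIs of all 16 mySC barcodes in that library. It had 519 UMIs of Cst3, 311 of Cd74, 186 of H2-Ab1 and 22 of Irf8, genes of antigen-presenting cells, 330 UMIs of the macrophage list and 1 of the myelin list. Pmp22 and Sox10, which mark myelin and Schwann cells, were at 0 in it, as were Apoe, C1qa and Csf1r of the macrophage list. In SD replicate 1 a barcode of 13256 UMIs held 66.8% of the members' mySC UMIs. It had 361 UMIs of the macrophage list, 336 of them from Cd74, and 4 of the myelin list. Apoe had 2 UMIs in it, and C1qa and Csf1r were at 0. In HFD replicate 1 a barcode of 10180 UMIs, with 580 and 1 of the 2 lists, held 57.9%. It had 242 UMIs of Apoe, 132 of Cd74, 25 of C1qa and 6 of Csf1r. Without the barcode that holds most members' UMIs in each library, the mySC shares were 4.72%, 3.26% and 4.39% (SD) and 1.58% and 5.54% (HFD), a difference of -0.561 points (exact permutation p = 0.8).

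Sorting the mySC barcodes by marker lists gave a narrower range. Those with more UMIs of the myelin list than of the macrophage list numbered 18, 35 and 7 with SD and 3 and 11 with HFD. Their share was 2.68%, 3.62% and 5.19% (SD) and 3.26% and 2.96% (HFD), where SCP lay between 3.12% and 8.42%, with a diet difference of -0.717 points (exact permutation p = 0.6). Those with more macrophage-list UMIs were found in 3 libraries only, where their share was 15.6% (SD replicate 1, 6 barcodes), 5.06% (HFD replicate 1, 4) and 22.0% (HFD replicate 2, 4). In HFD replicate 1 a single barcode was at 12.4% and the median was 2.42%, and 2 of the 4 held 1423 and 561 UMIs of the neutrophil list against 53 and 33 of the macrophage list. These few barcodes held 88.0%, 88.7% and 96.6% of the members' mySC UMIs in those libraries. The sorting was chosen after the values were seen. The macrophage list includes Cd74, a gene of antigen-presenting cells, so more UMIs of that list do not by themselves make a barcode a macrophage. A further barcode of HFD replicate 1, with 24932 UMIs and many from haemoglobin, had a share of 0.329%. The macrophage list as a whole took 1.14%, 0.0486% and 0% of mySC UMIs with SD and 1.26% and 1.28% with HFD.

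**Figure D3:**
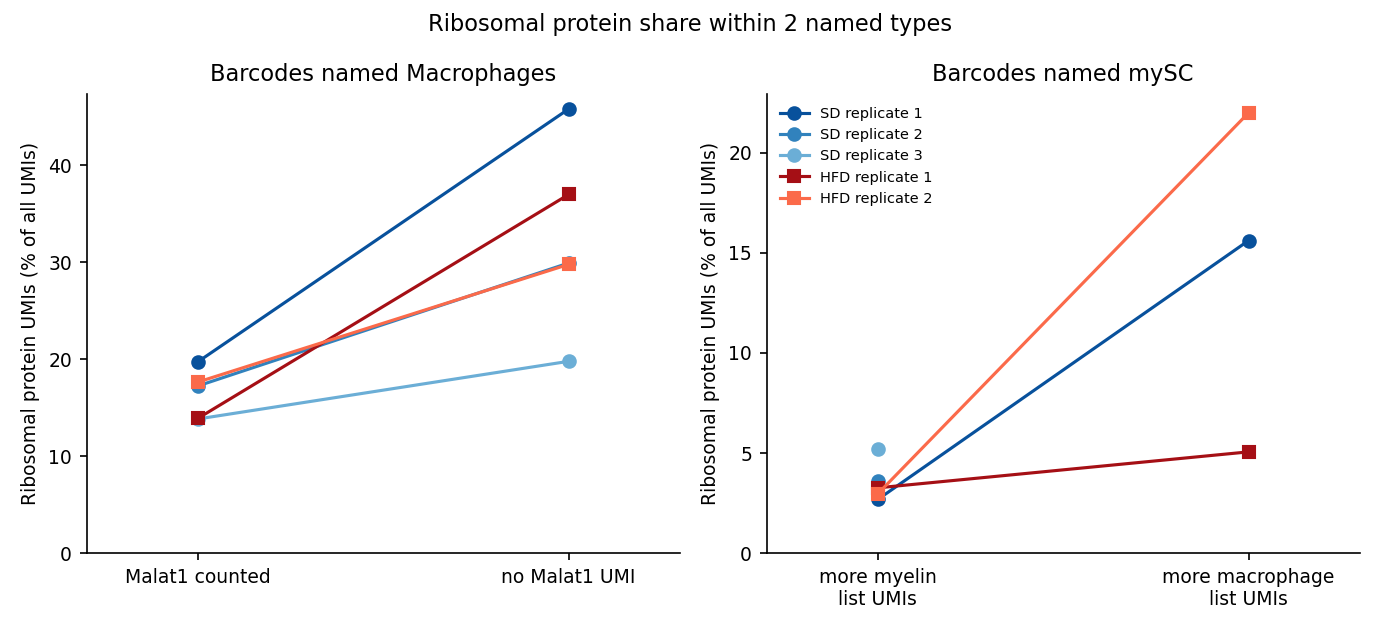
Share of UMIs taken by the ribosomal protein genes (y axis, % of all UMIs of the barcodes) in each library, for Macrophages without and with a Malat1 UMI (left) and for mySC barcodes with more myelin-list or more macrophage-list UMIs (right). Lines join values of 1 library. The 5 myelin-list values lie between 2.68% and 5.19%, and the share of Macrophages without Malat1 is the higher one in all 5 libraries.

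Macrophages varied most from barcode to barcode, and their share differed with whether Malat1 was counted. Malat1 is a long noncoding RNA that stays in the nucleus. In Macrophage barcodes with no Malat1 UMI the members' share was 45.8%, 29.9% and 19.8% in SD replicates 1 to 3 and 37.0% and 29.8% in HFD replicates 1 and 2. In those with Malat1 counted it was 19.7%, 17.2% and 13.8% (SD) and 13.9% and 17.7% (HFD). The share was higher without Malat1 in 5 of 5 libraries. Gm42418, a transcript annotated over a ribosomal RNA repeat, was not lower on the side without Malat1. It took 4.23%, 10.6% and 8.39% (SD) and 5.34% and 5.41% (HFD) of UMIs there. With Malat1 counted it took 4.23%, 4.15% and 4.85% (SD) and 4.84% and 3.92% (HFD). In 4 libraries barcodes without Malat1 were shallower, with medians of 1265 against 7207.5 UMIs and 452 against 659 UMIs in SD replicates 1 and 2, and 1344.5 against 7811.5 UMIs and 556 against 5999 UMIs in HFD replicates 1 and 2. In SD replicate 3 the medians were 150 and 142.5 UMIs. The values were therefore taken again over barcodes of at least 1000 UMIs, which SD replicate 3 lacks on the side without Malat1. They were 47.3% against 20.0% and 29.3% against 17.3% in SD replicates 1 and 2, and 41.0% against 14% and 28.5% against 17.9% in HFD replicates 1 and 2. In the same order, the side without Malat1 held 5, 2, 5 and 4 barcodes. Its medians were 1326, 2392, 1997 and 1181 UMIs, against 8406, 8606, 8973 and 9313.5, so depth was still not matched. In HFD replicate 1 the median barcode without Malat1 was at 22.8%. The split was chosen after the values were seen and is given without a test. The diet difference without these barcodes was -1.16 points. In mySC the share mostly went the other way. It was 3.60%, 5.34% and 2.69% (SD) and 0.532% and 4.32% (HFD) in mySC barcodes without Malat1. With Malat1 counted it was 11.1%, 1.98% and 9.99% (SD) and 4.80% and 20.8% (HFD). Only in SD replicate 2 was the mySC share higher without Malat1.

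At the top of this range, 13 barcodes had 40% or more of their UMIs in the members. All 13 were named Macrophages, from 4 libraries, and together they held 0 Malat1 UMIs. The deepest, in HFD replicate 1, had 3998 of 6608 UMIs in the members (60.5%), with 78 members counted, 70 UMIs of the macrophage list and none from mitochondrial genes. At the average of its type and library it would have had 104 Malat1 UMIs. In 5 of the 13 the macrophage list took less than 1% of the UMIs, against 6.07% in the type as a whole. When the barcode with most members' UMIs was left out in each library, the Macrophage shares were 20.7%, 18.8% and 18.9% (SD) and 14.2% and 17.9% (HFD), which do not overlap. That difference was -3.41 points at p = 0.1 in the exact permutation test, the smallest p possible, and the barcodes left out were chosen by their members' UMIs, on which the share depends. In SD replicate 3 the barcode left out held 7121 of the type's 8291 UMIs at a share of 13.6%, and the value of 18.9% rests on the other 7 barcodes.

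The repairSC barcodes fell into 2 kinds. In one kind, 36 barcodes shared their last 9 bases and together held 12 members' UMIs among 9961 UMIs (0.120%), with 29 of them at 0. The other 9, with a median of 5134 UMIs, had a share of 4.11%. In HFD replicate 2 a single barcode held 99.0% of the type's members' UMIs. No diet comparison was made for this type.

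The 83 genes were then taken one by one, with counts summed per library and tested with edgeR's quasi-likelihood test, adjusted by the Benjamini-Hochberg method over all genes tested. Levels from these fits are normalized CPM over the genes kept. Over all cells no member passed an adjusted p of 0.05 among 80 tested, against 0.0907% of 5510 genes (5 genes). None had an unadjusted p under 0.05, against 3.01% of genes higher and 1.38% lower, and DESeq2 called none. The fitted log2 difference was above 0 for 78 members and below 0 for 2, Rps27l and Rpl4 (both -0.01), with a median of 0.34 against 0.02 over all genes. Markers of cell types moved over all cells as well: 14 of 15 macrophage markers were above 0 (median 0.68), 13 of 14 myelin markers below (median -1.26), and 5 of 5 neutrophil markers tested above, with 3 called by edgeR. The macrophage list took 3.68%, 2.23% and 1.63% of UMIs with SD and 4.16% and 2.76% with HFD, the myelin list 1.85%, 2.46% and 4.13% with SD and 0.349% and 1.66% with HFD. The neutrophil list took up to 0.0106% with SD and 1.23% and 0.629% with HFD. Without neutrophil-like and haemoglobin-rich barcodes all 80 members were above 0, with a median of 0.41, and the part of the other 2 lists was not tested for single members. With DESeq2's size factors in edgeR, both Rps27l and Rpl4 turned positive and all 80 were above 0. Rpl39, a small protein of the exit tunnel, was at 2573, 1816 and 812 CPM with SD and 3031 and 2578 CPM with HFD. Both HFD values were higher than the SD values, with a log2 difference of 0.68 (adjusted p = 0.945, edgeR).

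Such separation of the libraries, HFD above SD, was found in 19 members and the reverse in none, where 14.3% and 9.44% of all genes tested did so. Rpl11, which also binds Mdm2, was at 1581, 1362 and 629 CPM (SD) and 1782 and 1908 CPM (HFD). Rps18 was at 1868, 1348 and 1048 CPM (SD) and 2044 and 2062 CPM (HFD). Rpl7l1, the counted member with fewest UMIs, had the largest difference of the members, 0.94 on the log2 scale. It was at 23.0, 27.9 and 26.2 CPM (SD) and 45.4 and 52.6 CPM (HFD), from few UMIs per library. None of these 3 was called (adjusted p = 0.945 each, edgeR). In all of them but Rpl7l1 SD replicate 3 was the lowest library, and its members' share was the lowest as well. Without SD replicate 3, the median over the members was 0.17 and 72 were above 0.

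In Macrophages the members were spread about 0. No member of 79 tested was called by edgeR or by DESeq2, and 0.0434% of 2302 genes were called by edgeR. At an unadjusted p under 0.05 no member stood in either direction, against 3.17% of genes higher and 0.652% lower. The difference was above 0 for 25 and below for 54, with a median of -0.10 against 0.06 over all genes. Leaving out SD replicate 3 put all 79 below 0 (median -0.33, with 3 members and 42 of 2108 genes lower at an unadjusted p under 0.05), and leaving out SD replicate 1 or HFD replicate 1 put the median at 0.12 or 0.08. Only Rpl8 and Rps7 had libraries that did not overlap, both with HFD below SD, as 5.39% of all genes did. Rps7, a small-subunit protein, was at 2753, 2772 and 2561 CPM (SD) and 1995 and 2292 CPM (HFD), a log2 difference of -0.34. For Rpl8, of the large subunit, the values were 2234, 2012 and 2348 CPM (SD) and 1440 and 1940 CPM (HFD), a log2 difference of -0.37. The adjusted p was 0.999 for both (edgeR).

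In mySC the members lay highest. The difference was above 0 for 77 of 78 tested, with a median of 1.22 against 0.42 over all 656 genes, and with the barcode holding most members' UMIs left out in each library it was 0.38 over 53 members, against 0.25 over all genes. No member was called by edgeR or by DESeq2, while 7.93% of all genes were. At an unadjusted p under 0.05, edgeR had 3 members higher (Rpsa, Rps29 and Rps28) and 0 lower, where 15.4% and 6.86% of all genes passed. DESeq2 had 3 and 0. Rps29 was at 5185, 2211 and 634 CPM with SD and 7130 and 13878 CPM with HFD. The HFD libraries were above the SD libraries, with a log2 difference of 1.90 (adjusted p = 0.175, edgeR). Rpsa, which also serves as a laminin receptor, was at 1808, 484 and 317 CPM (SD) and 2966 and 5359 CPM (HFD), a log2 difference of 2.11 (adjusted p = 0.175, edgeR).

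Other members also separated the mySC libraries. Rps27a, made as a fusion with ubiquitin, was at 1467, 691 and 951 CPM (SD) and 2706 and 4799 CPM (HFD), and Rpl23 at 2081, 760 and 634 CPM (SD) and 2654 and 4919 CPM (HFD). In each the highest value was HFD replicate 2, the library with the 20329-UMI barcode. In all, 14 members had HFD above SD in every library and 0 the reverse, against 28.2% and 13% of all genes. Leaving out SD replicate 1 gave 6 members called, all higher, of 71 tested, where 18.7% of the 395 genes tested were called higher, a larger share than among the members. Leaving out HFD replicate 2 put the median at 0.20 with 26 of 77 below 0.

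Markers of other cell types moved with the diet groups in mySC. The neutrophil list took 0.00461%, 0% and 0% of mySC UMIs with SD and 2.92% and 4.48% with HFD, with 6 of its 6 genes counted, and edgeR called all 4 that were tested as higher. The 14 myelin markers, all counted, took 2.93%, 5.56% and 6.93% with SD and 0.816% and 0.839% with HFD, with all 11 tested below 0 and 1 called. Haemoglobin genes took 33.9% in HFD replicate 1 and 0% in the other 4 libraries. Without neutrophil-like and haemoglobin-rich barcodes the members' median was 0.87, against 0.30 over all genes, with 75 of 77 above 0. The part of the myelin markers in the result was not tested. The share of Gm42418, a transcript annotated over a ribosomal RNA repeat, moved with the groups in this type: it was 12.4%, 18.5% and 28.1% of mySC UMIs with SD and 9.51% and 6.0% with HFD, and its part in the result was not tested.

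In SCP the members lay below 0 more often than above. Of 78 tested, 61 were below and 17 above 0, with a median of -0.34 against -0.02 over 1019 genes. edgeR and DESeq2 called no member and 0% of all genes passed edgeR's threshold. No member had an unadjusted p under 0.05, against 1.18% of genes higher and 0.393% lower. The direction rested on SD replicate 3, and without it the median was 0.11 with 46 of 76 above 0. HFD replicate 1 rested on 3 barcodes with 650 members' UMIs. In 11 members both HFD libraries were below the SD libraries and in 1 above, against 9.13% and 9.42% of all genes. Rpl7a was at 517, 239 and 856 CPM (SD) and 102 and 193 CPM (HFD), a log2 difference of -1.56. Rpl17 was at 1034, 855 and 1868 CPM (SD) and 406 and 579 CPM (HFD), a difference of -1.23. Rpl22l1 had 9, 14 and 6 UMIs with SD and 0 and 5 with HFD. Rps27a, higher with HFD in mySC by its values, was at 797, 787 and 2257 CPM (SD) and 406 and 618 CPM (HFD) here. Rpl31 was the member with HFD above SD, at 237, 205 and 389 CPM (SD) and 914 and 444 CPM (HFD). The adjusted p was 1.00 for each of these 5 (edgeR).

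In nmSC 75 members were tested in 2 SD and 2 HFD libraries. The difference was above 0 for 47 and below for 28, with a median of 0.17 against -0.06 over 327 genes. No member was called by edgeR or DESeq2, and edgeR called 0% of all genes. None had an unadjusted p under 0.05, against 0.917% of genes higher and 0.306% lower. With DESeq2's size factors 57 were above 0, and without HFD replicate 1 the median was -0.26. HFD lay above SD in both libraries for 18 members and below for 3, against 10.1% and 12.5% of all genes. Rps27 was at 2256 and 2749 CPM (SD) and 5724 and 4259 CPM (HFD), and Rpl34 at 1655 and 1425 CPM (SD) and 3593 and 2650 CPM (HFD). Rpl26 and Rpl37 also had HFD above SD, with log2 differences of 0.84 and 0.64. Rpsa was at 3761 and 2240 CPM (SD) and 2131 and 1514 CPM (HFD), opposite to its values in mySC, and Rpl21 and Rpl18 also had HFD below SD, with log2 differences of -0.31 and -0.24. None of these 7 was called (adjusted p = 1.00 each, edgeR). In nmSC the numbers of barcodes were 5 and 8 (SD) and 4 and 7 (HFD). The list of 10 fibroblast markers took 2.39% to 9.71% of the UMIs over these libraries. The 7 endothelial markers, all counted, took 0.370% and 0% in SD replicates 1 and 2. They took 0% and 0.378% in HFD replicates 1 and 2. The part of either list in the result was not tested.

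**Figure D4:**
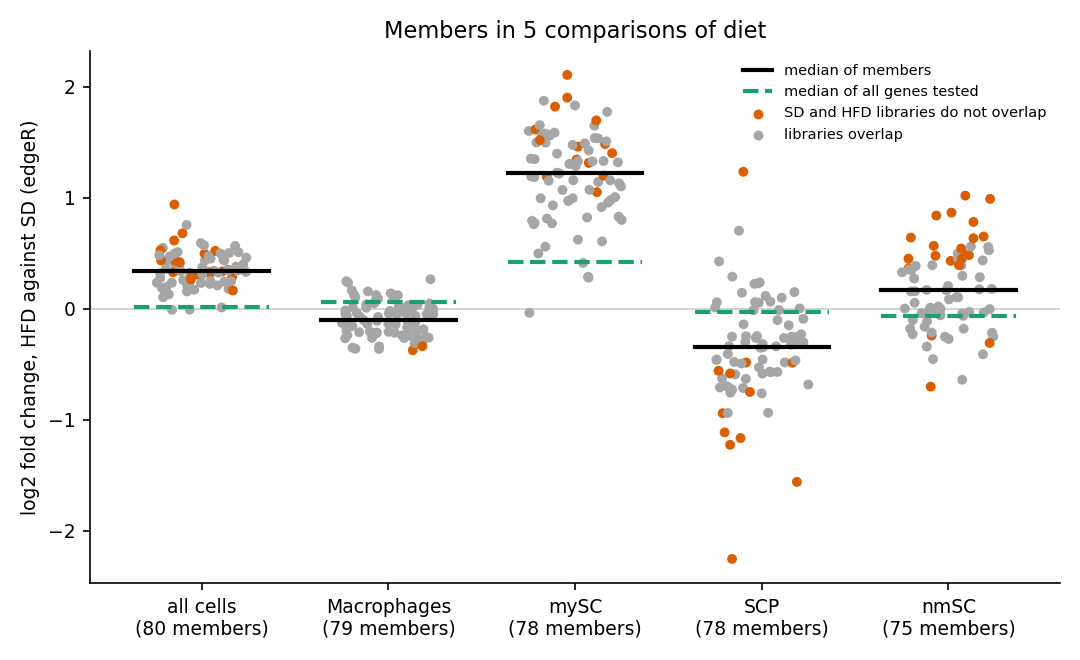
Log2 fold change, HFD against SD, from edgeR (y axis) for the members tested in 5 comparisons (x axis). Orange points are members whose SD and HFD libraries do not overlap, black lines are medians over the members and dashed green lines medians over all genes tested. The medians are 0.34, -0.10, 1.22, -0.34 and 0.17 from left to right, and no point passed an adjusted p of 0.05.

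The difference between types was tested gene by gene for mySC against Macrophages, with each library as a block. No member of 79 was called by edgeR, against 0.319% of 1252 genes. None had an unadjusted p under 0.05, against 5.51% of genes higher and 1.76% lower. DESeq2 was not run for this test. The difference of the log2 diet differences was above 0 for 75 members and below for 4, with a median of 1.00 against 0.26 over all genes. Rpsa had the lowest p, with 2.43 on the log2 scale and a standard error of 1.25 (adjusted p = 0.671, edgeR). Leaving out the barcode with most members' UMIs in each type and library turned the median to -0.19, with 48 of 78 below 0, where the median over all genes was -0.29.

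Other genes of the translation machinery were read beside the members. edgeR called none of the 6 lists' genes in any comparison, and 2 values had an unadjusted p under 0.05 (Eef1b2 in mySC and Ncl in Macrophages). DESeq2's calls were not taken for these lists. Fau, which encodes a small-subunit protein under another symbol, as a fusion with a ubiquitin-like protein, was at 4376, 3046 and 2252 CPM (SD) and 4564 and 3935 CPM (HFD) over all cells. As in most members, SD replicate 3 was the lowest. Its log2 difference was 0.39 over all cells, -0.15 in Macrophages, 1.41 in mySC, -0.51 in SCP and 0.54 in nmSC (adjusted p = 0.954, 0.999, 0.357, 1.00 and 1.00, edgeR). Of 9 elongation genes tested over all cells, 7 were above 0, with 4 of 9 in Macrophages, 7 of 7 in mySC, 1 of 5 in SCP and 3 of 3 in nmSC. Eef1b2, an exchange factor of elongation factor 1, was at 586, 328 and 131 CPM (SD) and 617 and 666 CPM (HFD) over all cells, a log2 difference of 0.82. Eef1d, of the same complex, had -0.42 and overlapping libraries.

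The initiation, biogenesis, mTOR and Myc, and mitochondrial ribosome lists had medians nearer 0 than the members over all cells, where types are mixed. The initiation list had 11 of 28 above 0 (median -0.07), ribosome biogenesis 6 of 9 (0.16), and the mTOR and Myc list 8 of 12 (0.11). Mitochondrial ribosomal proteins, which form the separate ribosome of mitochondria, had 17 of 43 above 0 (median -0.13). Mrpl18 among them was at 38.3, 55.9 and 157 CPM (SD) and 26.5 and 28.1 CPM (HFD). Its HFD libraries lay below SD, as in 9.44% of all genes tested. Pabpc1, the poly(A)-binding protein whose messenger RNA also begins with a pyrimidine run, was at 249, 300 and 236 CPM (SD) and 450 and 428 CPM (HFD). Its HFD libraries lay above SD (adjusted p = 0.943, edgeR), as in 14.3% of all genes tested. Within types not every list lay nearer 0 than the members. In Macrophages the mitochondrial ribosome list had 2 of 11 above 0 (median -0.42), against a members' median of -0.10. The initiation list had 10 of 20 above 0 there (median -0.06). In SCP it had 2 of 5 above 0 (median -0.70, members -0.34), and in mySC 4 of 6 (median 0.05, members 1.22).

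Apart from their total, the members were present in different proportions in SCP and Macrophages, the 2 types with at least 3 barcodes in all 5 libraries whose markers matched their names. Taken as CPM, 69 of the 80 counted members were higher in Macrophages than in SCP in every library, and the median ratio of the pooled CPM was 4.21, from 0.857 (Rps27l) to 8.77 (Rpl12). To set the total aside, each member was then taken as a percent of the members' UMIs, for the 76 members with at least 500 UMIs. In Macrophages of SD replicate 3 these percents rest on 1193 members' UMIs, 81.5% of them from a single barcode. In SCP of HFD replicate 1 they rest on 650 from 3 barcodes. The genes named from this comparison were chosen after their values were seen, and since the types were defined from the same cells no test is given.

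In all 5 libraries 11 members took a smaller part in SCP than in Macrophages and 14 a larger part, while 51 varied. Rps24, of the small subunit, had 1.33%, 1.70% and 1.66% (SD) and 1.38% and 1.15% (HFD) of the members' UMIs in SCP, and 2.80%, 2.91% and 3.52% (SD) and 2.63% and 2.23% (HFD) in Macrophages. Here all SCP values were below all Macrophage values. Rpl12, which sits at the base of the stalk, was at 0.480% ± 0.115 in SCP and 0.968% ± 0.163 in Macrophages (standard deviation, n = 5). Rplp0, which anchors the stalk proteins, went the other way. It had 1.82%, 1.57% and 1.49% (SD) and 1.08% and 1.34% (HFD) of the members' UMIs in SCP, and 0.682%, 0.839% and 0.922% (SD) and 0.648% and 0.799% (HFD) in Macrophages. All SCP values of Rplp0 were above all Macrophage values, with 1.46% ± 0.276 against 0.778% ± 0.113 (standard deviation, n = 5).

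By subunit, 7 of 31 small-subunit members took a smaller part in SCP in every library and 4 a larger part. Of 42 large-subunit members, 4 took a smaller and 9 a larger part, and of the 3 stalk members 0 and 1. The small subunit as a whole held 42.4%, 42.0% and 43.0% (SD) and 42.3% and 41.0% (HFD) of the members' UMIs in SCP. In Macrophages it held 46.3%, 46.7% and 45.3% (SD) and 47.1% and 45.4% (HFD). All 5 SCP values were below all 5 Macrophage values, and within each type SD and HFD overlapped. Rps29, the most abundant member, held 4.10%, 3.34% and 2.86% (SD) and 4.31% and 3.11% (HFD) in SCP, and 5.05%, 5.36% and 2.85% (SD) and 6.48% and 5.17% (HFD) in Macrophages. It took a smaller part in SCP in 4 of 5 libraries, and in SD replicate 3 the values were nearly equal.

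**Figure D5:**
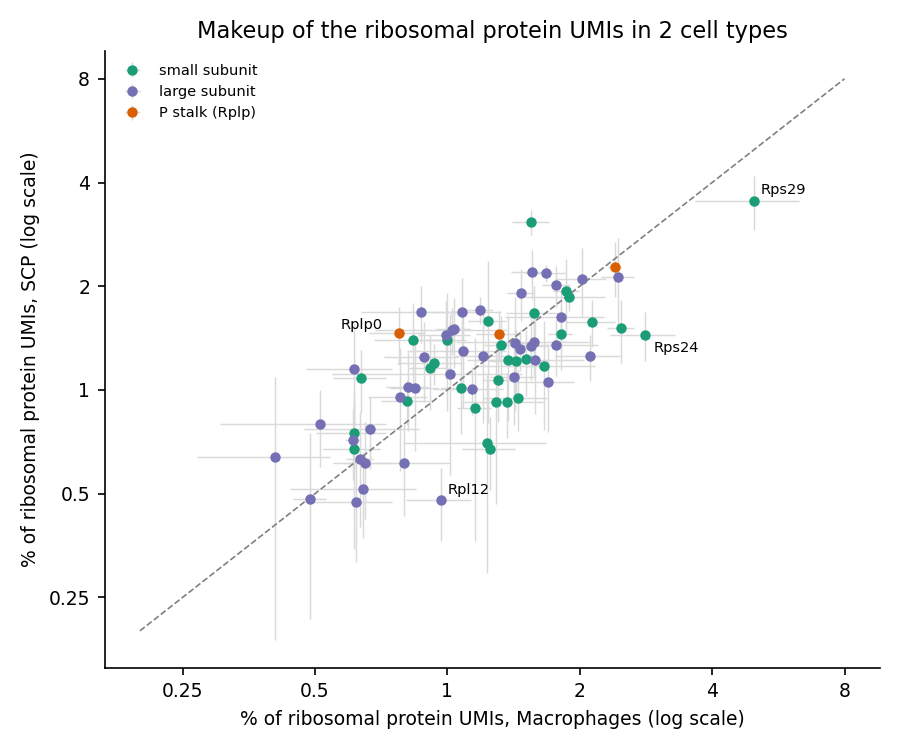
Each point is 1 of 76 ribosomal protein genes, placed by its percent of the members' UMIs in Macrophages (x axis, log scale) and in SCP (y axis, log scale), as means of 5 libraries with standard deviation bars. Colours mark the subunit, and the dashed line marks equal values. Rplp0 lies above the line, and Rps24 and Rpl12 lie below it.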

How the data were processed

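The authors deposited raw UMI counts per gene and barcode, and a table with each barcode's library, cluster name and mitochondrial share in percent, per the file headers. Cell Ranger 3.1.0 and mm10 are named in the submitters' processing notes. How cells were filtered and doublets treated is not given in the sources used here. Mitochondrial UMIs stayed under 5% in every barcode, and no doublet caller was run. Libraries named as controls in the deposited tables were taken as SD.

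Shares are members' UMIs over all UMIs, summed per library and type (at least 3 barcodes for a comparison), and diets were set against each other by exact permutation of libraries, two-sided (scipy 1.17.1). Summed counts were tested with edgeR 4.0.16 (filterByExpr, TMM, robust quasi-likelihood fit, R 4.3.3) with Benjamini-Hochberg adjustment over all genes tested, and DESeq2 1.42.0 was an alternative. The edgeR code was tested on simulated counts with known changes. Standard errors of log2 values are approximate. Reference sequences came from RefSeq (GRCm38.p6) and gene positions from GENCODE vM21, of the same build as mm10.

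The members and lists were chosen with earlier results of these data known. Named members were the 10 with most UMIs, up to 4 per direction and fit with the lowest p among those whose libraries did not overlap, all paralogs named after a parent gene, and those against the majority over all cells. From other lists up to 3 genes with the lowest p over all cells could be named, and Rps28 and the makeup genes were named after their values were seen. Some genes are not reported here. Chosen after seeing the data were the alternatives that leave out barcodes without Malat1, with most members' UMIs or with near-identical sequences, the myelin-list subset of mySC, the limits of 40% and of 1000 and 500 UMIs in the Malat1 and makeup comparisons, and the sequence motifs. Same-numbered libraries of the 2 diets deviated from their diet means with correlations of 0.28 and -0.09 over 5510 genes. The deviations of the 2 HFD libraries mirror each other by construction, so these values cannot show or exclude a pairing.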

Additional observations from a re-analysis of the deposited data

How the results depend on the processing

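With 3 against 2 libraries no test of a share could pass 0.05, so the settings below are read by direction. Leaving out 1 library at a time, the share difference (HFD minus SD, percentage points) ranged from 0.623 to 3.1 over all cells, -3.20 to 0.282 in Macrophages, -3.04 to 11.9 in mySC, -2.11 to 0.539 in SCP and -1.31 to 8.75 in nmSC. Differences between types then ranged from -0.271 to 11.6 (mySC minus Macrophages), -2.32 to 13.4 (mySC minus SCP) and -3.73 to 2.13 (Macrophages minus SCP). Other settings that reversed a share were the folder numbers (4.18 in Macrophages, -3.56 in mySC, 0.954 in SCP), the mean of per-cell shares in mySC (-0.258), the barcode with most members' UMIs left out in mySC (-0.561), its myelin-list subset (-0.717) and the replicate block in SCP (0.539). The replicate numbers give 2 pairs whose libraries were not shown to pair. With the replicate block the genes called were 64 over all cells, 3 in Macrophages, 22 in mySC and 2 in SCP, with 0 members in each, and the members' median in SCP became 0.16. Genes called over all cells (5) were 9 with DESeq2, 47 without a filter, 57 with the folder number as a term, 0 without neutrophil-like and haemoglobin-rich barcodes, 3 without the barcode richest in members' UMIs, and 0 to 54 with 1 library left out. In Macrophages (1) they were 0 with DESeq2 or the folder number, 5 without the richest barcode and 0 to 4 with 1 library left out. In mySC (52) they were 8 without a filter, 1 without neutrophil-like and haemoglobin-rich barcodes, 25 without barcodes lacking Malat1, 32 without near-identical barcodes, 0 in the myelin-list subset and 22 to 99 with 1 library left out, where members called were 0 to 6. In SCP (0) they were 2 without a filter, 1 with the folder number and 0 to 4 with 1 library left out, and in nmSC (0) 0 to 2. For mySC against Macrophages (4) they were 2 without barcodes lacking Malat1, 13 without the richest barcodes, 0 without neutrophil-like and haemoglobin-rich barcodes and 1 to 9 with 1 library left out. The members' median log2 difference reversed in Macrophages without a filter (0.17) and with the folder number (0.036), and between types without the richest barcodes (-0.19). In these fits the median over all genes also moved, from 0.06 to 0.34 and 0.14 in Macrophages, where the members' median stayed below it, and from 0.26 to -0.29 between types, where it stayed above. With 1 library left out it ranged from -0.33 to 0.12 in Macrophages, -0.63 to 0.11 in SCP and -0.26 to 0.72 in nmSC. The cause of these changes was not tested. SD replicate 3, with 37744 UMIs, and types with 3 to 8 barcodes in a library limit what can be resolved.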
